A study of Mus musculus with 59 samples.

Results

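The proteasome subunit genes of mouse brown adipose tissue (BAT) were followed by RNA-seq through thyroid hormone treatment, cold and a high-fat diet. Members were the genes whose symbol began with Psma to Psmg followed by a number and held no -ps suffix, with a mean raw count of 10 or more over all 59 mice. This rule kept 47 of the 55341 genes in the tables and left out 4 symbols with a -ps suffix. It also left out 3 genes below the count limit, namely Psma8 with a mean of 0.593 reads, Psmb11 with 0.0508 reads and Psmc3ip with 9.58 reads. Psmc3ip is named after its partner Psmc3 and is not itself a subunit.

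The proteasome is the barrel-shaped protease that cuts up proteins tagged with ubiquitin. Its core particle is built of outer alpha rings, encoded by Psma genes, around inner beta rings, encoded by Psmb genes, of which Psmb5, Psmb6 and Psmb7 carry the cutting sites. The regulatory particle, encoded by Psmc and Psmd genes, binds the ubiquitin tag, removes it, unfolds the protein and feeds it into the core. Psmb8, Psmb9 and Psmb10 replace the standard cutting subunits in the immunoproteasome and are induced by interferon. Psme genes encode alternative caps of the core, Psmf1 an inhibitor, Psmg genes chaperones of core assembly, and Psmd5, Psmd9 and Psmd10 chaperones of the regulatory particle's base. The transcription factor Nfe2l1 drives subunit genes when proteasome activity falls short and is known to be needed for thermogenic brown fat in the cold.

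All mice were male C57BL/6J mice of 8 to 12 weeks, and each library came from the BAT of 1 mouse. In the hormone experiment, wild-type (WT) mice received propylthiouracil (PTU), a blocker of thyroid hormone synthesis, either alone (4 mice) or followed by thyroid hormone (TH) for 3, 6, 12 or 24 h (4 mice each), and BATKO mice received PTU alone (5 mice) or PTU and TH for 24 h (5 mice). In the temperature experiment, mice spent 24 h at 4 °C (3 control, CTRL, and 4 BATKO mice) or at 30 °C (4 CTRL and 5 BATKO mice). In the diet experiment, mice ate a high-fat diet (HFD; 4 CTRL and 3 BATKO mice) or chow (4 CTRL and 2 BATKO mice) for 3.5 days. The labels describe neither the gene changed in BATKO mice nor the promoter used, so BATKO is used here as a label only.

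Libraries held 7612059 to 18073627 counted reads. In the hormone experiment the 10 BATKO libraries held 13593987 to 18073627 reads and the 20 WT libraries 7805938 to 14615534. The 8 markers of brown adipocytes, Ucp1 among them, were measured in every group, with a summed level between 734 CPM (counts per 1000000 counted reads) in a CTRL mouse at 30 °C and 23193 CPM in a CTRL mouse at 4 °C. The summed level of 5 skeletal muscle genes ranged from 0.399 to 7550 CPM across mice, and 0 of the 5 were called in the cold in either genotype by edgeR. All 5 were nonetheless lower there, by log2 values of −2.76 to −1.93 in CTRL and −2.06 to −1.66 in BATKO mice, with overlapping groups. Their summed mean at 30 and 4 °C was 1507 ± 1999 and 317 ± 224 CPM (SD) in CTRL mice. In BATKO mice it was 2953 ± 3858 and 854 ± 637 CPM (SD). The part of muscle in the members' changes was not tested. In bulk tissue, fewer cells of a type and less RNA per cell cannot be told apart. Levels below are CPM after TMM scaling within each experiment's table, fold changes are log2 values from edgeR's quasi-likelihood test, and a gene was called where its Benjamini-Hochberg adjusted p over all genes tested was under 0.05.

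In the temperature experiment 3 libraries stood apart from their groups, namely CTRL 4 °C mouse 1, BATKO 4 °C mouse 11 and BATKO 30 °C mouse 14. On the second component of the variation within groups, computed over 13220 genes without the members and holding 16.1% of that variation, they scored −0.51 to −0.35, against −0.16 to 0.32 in the other 13 libraries. Several members were low in all 3, with log2 differences from their group-mates of −2.91 to −2.10 for Psma5, −3.07 to −1.69 for Psmb5, −2.42 to −1.66 for Psme2 and −1.47 to −1.2 for Psma2. Others were higher in all 3, by 0.30 to 1.04 for Psmb8, 0.43 to 0.81 for Psme2b, 0.25 to 0.66 for Psmb6 and 0.0045 to 0.86 for Psmb10. Cold comparisons were therefore also run without these 3 libraries, a choice made after seeing the data.

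At 4 °C most subunits of the standard proteasome were called higher than at 30 °C, while the 3 immunoproteasome subunits were called lower, in CTRL and in BATKO mice. In CTRL mice 28 of 47 members were called higher (59.6%) and 3 lower (6.38%), against 26.5% of all 13267 genes tested called higher and 22.6% lower. The median log2 fold change was 0.61 over the members and −0.01 over all genes, and 40 of 47 members lay above 0. In BATKO mice 28 members were again called higher and 3 lower, against 21.4% and 18.9% of all genes, with a median of 0.54 against −0.02. Summed over the members under TMM scaling, the level was 1425 ± 88.4 CPM (SD, n = 4) at 30 °C and 2376 ± 212 CPM (SD, n = 3) at 4 °C in CTRL mice, and 1456 ± 77.7 CPM (SD, n = 5) and 2251 ± 208 CPM (SD, n = 4) in BATKO mice. The mean TMM factor was 1.13 at 30 °C and 0.755 at 4 °C in CTRL mice, and 1.18 and 0.903 in BATKO mice. A lower factor raises the CPM of a library, so the rise of these sums is smaller under scaling to total counts alone.

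These counts depended on scaling. With libraries scaled to their total counts alone, a setting added after the TMM factors of cold and warm libraries were seen to differ, the median of all genes moved by −0.59 in CTRL and −0.39 in BATKO mice, and the split fell to 7 members higher and 7 lower in CTRL and 8 higher and 4 lower in BATKO mice. The members' median then was 0.03 in CTRL and 0.16 in BATKO mice, which stood 0.64 and 0.57 above that of all genes. Called higher in both genotypes under that scaling were Psma6, Psmb2, Psmb7, Psmc4 and Psmd12, and Psmb8, Psmb9 and Psmb10 were called lower in both. Without the 3 libraries that stood apart, 30 members were called higher and 3 lower in CTRL mice (22.4% and 20% of all genes), and 26 higher and 3 lower in BATKO mice (17.5% and 15.4%). In CTRL mice Psma2, Psma5, Psmb1, Psmb5, Psmd11 and Psmg1 gained a call and Psma7, Psmb6, Psmd13 and Psmg3 lost theirs. In BATKO mice Psma2 and Psmb5 gained a call and Psmc6, Psmd3, Psmd8 and Psmd10 lost theirs.

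**Figure D1:**
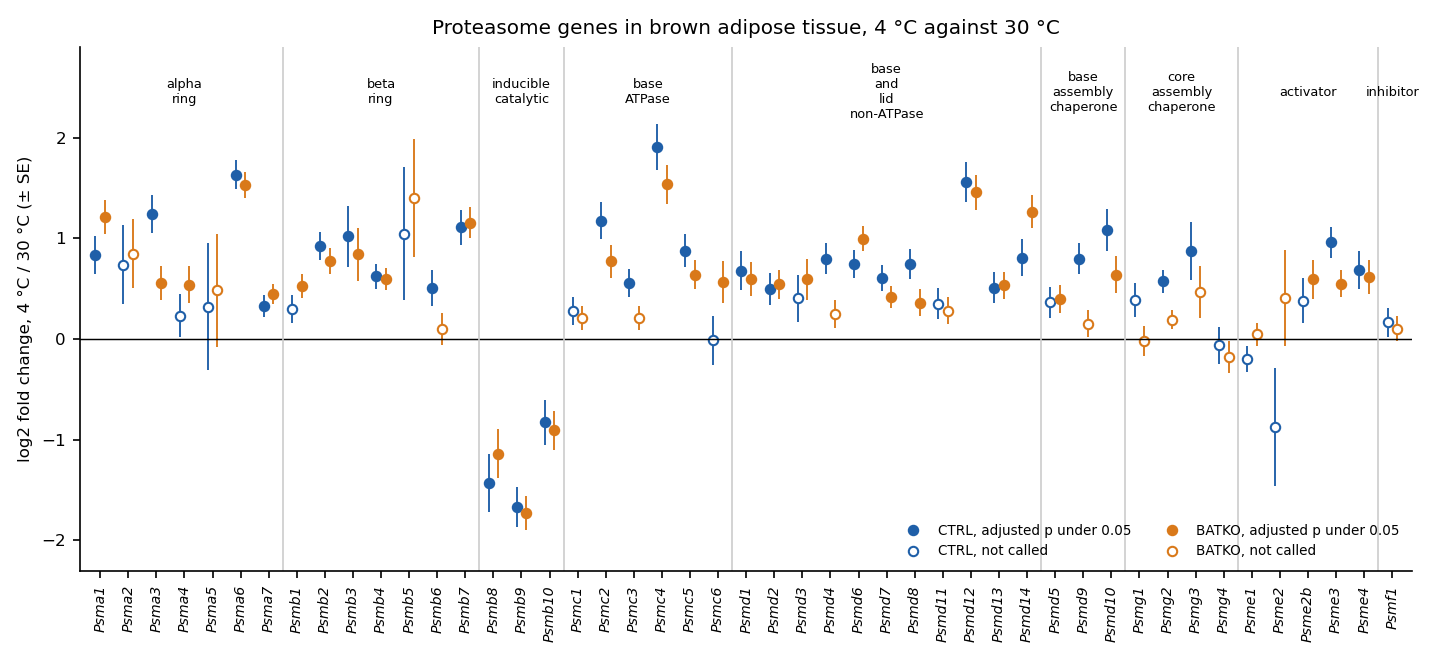
Log2 fold change at 4 °C against 30 °C (y axis) of each of the 47 members (x axis, grouped by role), with bars of 1 SE, in CTRL mice (blue) and BATKO mice (orange); filled points were called. Most subunits of the core and regulatory particles lie above 0 and Psmb8, Psmb9 and Psmb10 lie below it under TMM scaling, whereas scaling to total counts alone lowers every CTRL value by about 0.59 and leaves 7 CTRL members called higher.

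Under TMM scaling, most subunits of both particles were called higher. Of the 31 subunits of the core and regulatory particles, 22 were called higher in CTRL mice (median 0.74) and 23 in BATKO mice (median 0.59), against 26.5% and 21.4% of all genes. By edgeR 0 were called lower in either genotype, although scaling to total counts alone called Psmc6 lower in CTRL mice. Most of the higher calls were lost under that scaling, as given above. In the core particle 9 of 14 subunits were higher in CTRL and 10 of 14 in BATKO mice. In the regulatory particle 13 of 17 were higher in each genotype. In both genotypes 22 members were called higher and 10 were called in neither.

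The member with the largest increase was Psmc4, an ATPase of the base that helps unfold substrates (chromosome 7, 28041707 to 28050101, GRCm38). Its level in CTRL mice was 27.8, 31.0, 29.3 and 36.6 CPM at 30 °C and 90.3, 146 and 115 CPM at 4 °C. In BATKO mice it was 35.6, 23.6, 36.6, 38.4 and 43.4 CPM at 30 °C and 115, 130, 67.4 and 99.5 CPM at 4 °C. Every cold mouse lay above every warm mouse of its genotype, and the lowest cold values came from the libraries that stood apart, CTRL mouse 1 and BATKO mouse 11. The log2 fold change of Psmc4 was 1.91 (SE 0.22, adjusted p = 4.37e-06) in CTRL and 1.54 (SE 0.20, adjusted p = 2.02e-05) in BATKO mice.

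Psma6, a subunit of the outer alpha ring (chromosome 12, 55384222 to 55418454), held 60.3, 61.1, 61.8 and 74.3 CPM in CTRL mice at 30 °C and 174, 217 and 207 CPM at 4 °C. In BATKO mice Psma6 held 72.2, 61.7, 69.4, 55.0 and 49.97 CPM at 30 °C and 182, 199, 154 and 178 CPM at 4 °C. The groups were far apart in both genotypes. The log2 fold change was 1.63 (SE 0.15, adjusted p = 3.53e-07) in CTRL and 1.53 (SE 0.13, adjusted p = 5.98e-07) in BATKO mice. Psma6 was also among the most abundant members per kilobase of exon, as described further on.

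Psmd12, a subunit of the lid (chromosome 11, 107479484 to 107504362), held 21.7, 24.0, 31.8 and 31.2 CPM at 30 °C and 58.0, 86.6 and 95.9 CPM at 4 °C in CTRL mice. In BATKO mice it held 27.7, 20.0, 25.7, 18.5 and 22.6 CPM at 30 °C and 77.1, 66.3, 53.3 and 55.0 CPM at 4 °C. The groups did not overlap, and the log2 fold change was 1.56 (SE 0.20, adjusted p = 9.22e-06) in CTRL and 1.46 (SE 0.18, adjusted p = 1.09e-05) in BATKO mice. Across the 11 non-ATPase subunits of base and lid, 9 were called higher in each genotype, with log2 fold changes of 0.35 to 1.56 in CTRL and 0.25 to 1.46 in BATKO mice. Of the 6 ATPases of the base, 4 were called higher in each genotype. Scaling to total counts alone turned Psmd2, a scaffold subunit of the base, to −0.10 in CTRL mice and Psmd8, a lid subunit, to −0.014 in BATKO mice.

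Of the 3 standard cutting subunits, Psmb7 was called in both genotypes with all mice. Psmb7, which carries the trypsin-like site (chromosome 2, 38588036 to 38644087), rose from 26.6, 28.1, 28.4 and 27.4 CPM to 55.7, 65.3 and 58.0 CPM in CTRL mice and was higher by 1.11 (SE 0.17, adjusted p = 7.01e-05) in CTRL and 1.15 (adjusted p = 2.76e-05) in BATKO mice, with no overlap. Psmb6, which carries the caspase-like site, was called in CTRL mice (0.50, SE 0.18, adjusted p = 0.0297) with overlapping groups, was at 0.10 (adjusted p = 0.644) in BATKO mice, and turned to −0.070 in CTRL mice when libraries were scaled to total counts alone. With 1 mouse left out, Psmb6 in CTRL mice ran from 0.21 (without 4 °C mouse 1, a library that stood apart) to 0.70 (without 4 °C mouse 5), and kept its call in 2 of 7 fits, those without 4 °C mouse 5 and 30 °C mouse 19.

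Psmb5, which carries the chymotrypsin-like site (chromosome 14, 54614119 to 54618022), held 2.16, 2.32, 1.66 and 2.24 CPM at 30 °C and 0.56, 6.76 and 5.69 CPM at 4 °C in CTRL mice. In BATKO mice it held 1.88, 0.46, 2.61, 2.09 and 1.35 CPM at 30 °C and 4.78, 7.69, 0.66 and 4.70 CPM at 4 °C. The 3 lowest of these values, 0.56, 0.46 and 0.66 CPM, were those of the libraries that stood apart. With all mice Psmb5 was not called, at 1.04 (SE 0.66, adjusted p = 0.20) in CTRL and 1.40 (SE 0.58, adjusted p = 0.0659) in BATKO mice. Without the 3 libraries it was called in both, at 1.53 (adjusted p = 0.000694) and 1.51 (adjusted p = 0.00066). Psma2 behaved alike, uncalled with all mice (0.74 and 0.85) and called at 1.03 and 0.90 without them.

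The immunoproteasome subunits went the other way. Psmb9 (chromosome 17, 34181987 to 34187764) held 8.14, 10.4, 8.73 and 8.45 CPM at 30 °C and 3.50, 2.09 and 2.79 CPM at 4 °C in CTRL mice. In BATKO mice it held 9.02, 12.2, 9.49, 9.77 and 8.46 CPM at 30 °C and 3.49, 2.71, 2.75 and 2.82 CPM at 4 °C. Psmb9 was thus lower in every cold mouse, by −1.67 (SE 0.20, adjusted p = 4.52e-06) in CTRL and −1.73 (SE 0.17, adjusted p = 1.8e-06) in BATKO mice.

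Psmb8, its neighbour in the class II region of the major histocompatibility complex (chromosome 17, 34197721 to 34201454), held 11.2, 11.8, 11.1 and 8.65 CPM at 30 °C and 6.09, 3.19 and 2.58 CPM at 4 °C in CTRL mice. In BATKO mice it held 14.7, 16.4, 9.83, 11.0 and 11.7 CPM at 30 °C and 7.17, 3.68, 6.59 and 5.64 CPM at 4 °C. Groups did not overlap, and the log2 fold change was −1.43 (SE 0.29, adjusted p = 0.00061) in CTRL and −1.14 (SE 0.24, adjusted p = 0.00137) in BATKO mice. Psmb10 (chromosome 8, 105935735 to 105938444) fell by −0.83 (SE 0.22, adjusted p = 0.00562) in CTRL and −0.91 (SE 0.19, adjusted p = 0.0014) in BATKO mice. All 3 genes stayed called lower in both genotypes when any 1 mouse was left out and under every scaling tried. The exons of Psmb9 share 212 bases with Tap1 and those of Psmb8 share 498 bases with Gm20496, each on the opposite strand, and whether reads were counted by strand is not given in the sources used here.

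Most of the other interferon-inducible genes listed were also called lower beside these subunits. Of 15 interferon and class I antigen presentation genes, 12 were called lower in CTRL mice (median −1.09) and 13 in BATKO mice (median −0.87). Their summed level was 2047 to 3026 CPM at 30 °C and 1202 to 1608 CPM at 4 °C in CTRL mice, and 2378 to 3069 against 1053 to 1516 CPM in BATKO mice. Of 11 immune cell markers, 7 were tested, of which 4 were called lower in CTRL and 2 in BATKO mice, and their summed level was 190 to 319 CPM at 30 °C and 87.5 to 143 CPM at 4 °C in CTRL mice and 163 to 295 against 121 to 167 CPM in BATKO mice. The part of immune cell content in the fall of Psmb8, Psmb9 and Psmb10 was not tested. Of the 8 brown adipocyte markers, 8 were called higher in CTRL and 7 in BATKO mice in the cold. Of the 4 general adipocyte markers, 2 were called higher and 1 lower in CTRL mice and 2 higher in BATKO mice, and 1 higher and 1 lower in each genotype under scaling to total counts alone. Their summed level was 5073 to 6056 CPM at 30 °C and 9621 to 10484 CPM at 4 °C in CTRL mice, and 5159 to 5987 against 9237 to 11842 CPM in BATKO mice. The part of adipocyte content in the members' changes was not tested.

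**Figure D2:**
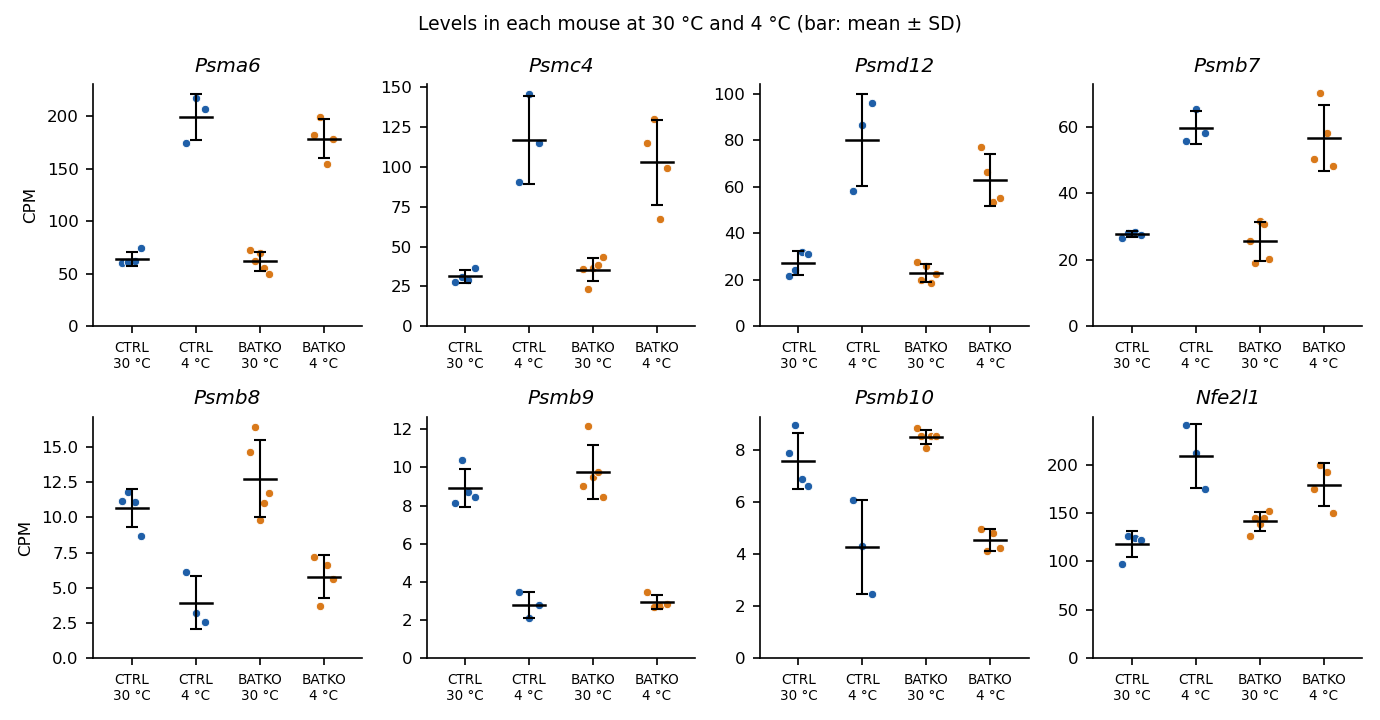
Level of each mouse (points, CPM, y axis) of Psma6, Psmc4, Psmd12, Psmb7, Psmb8, Psmb9, Psmb10 and Nfe2l1 in CTRL and BATKO mice at 30 °C and 4 °C (x axis), with bars for the mean ± SD. Psmc4 lies at 27.8 to 36.6 CPM in warm and 90.3 to 146 CPM in cold CTRL mice, while Psmb9 lies at 8.14 to 10.4 CPM in warm and 2.09 to 3.50 CPM in cold CTRL mice.

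Caps, inhibitor and chaperones were mixed. Psme3, which encodes the nuclear cap, was higher in the cold by 0.96 (adjusted p = 8.99e-05) in CTRL and 0.55 (adjusted p = 0.00431) in BATKO mice. Psme4, another nuclear cap, was higher by 0.68 (adjusted p = 0.00713, lost without CTRL 4 °C mouse 5) and 0.62 (adjusted p = 0.00807). Psme1 and Psme2, whose products form the interferon-inducible cap, were not called, with Psme1 at −0.20 and 0.05 and Psme2 at −0.87 and 0.41. These Psme2 values include the 3 libraries that stood apart, with 6 reads in CTRL 4 °C mouse 1 against 21 and 24 in its group-mates. Psme2 is nearly identical to Psme2b, so reads of the pair may have been divided between them, and Psme2b was called higher only in BATKO mice, where it was at 0.60 (adjusted p = 0.0223) and lost its call in 4 of 9 fits, those without 4 °C mice 7 and 11 and 30 °C mice 16 and 17. The inhibitor gene Psmf1 was at 0.17 and 0.10 and was not called.

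Among chaperones of the base, Psmd10 was higher in CTRL (1.08, adjusted p = 0.000495) and BATKO mice (0.64, adjusted p = 0.012). Psmd9 was called in CTRL mice at 0.80 and was at 0.15 in BATKO mice, and 25.5% of its exon bases overlap Gm26745 on the opposite strand. Of the 4 core chaperones, Psmg2 (0.57) and Psmg3 (0.88) were called higher in CTRL mice and 0 in BATKO mice by edgeR. Psmg2 turned to −0.019 in CTRL mice under scaling to total counts alone.

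With all mice, neither edgeR under TMM scaling nor DESeq2 called a member between genotypes in this experiment or for a difference in cold response. Scaling to total counts alone called Psme1 higher in BATKO mice at 4 °C. Leaving out CTRL 4 °C mouse 5 gave 1 member called lower at 4 °C and 1 for the difference in response. For the difference between the BATKO and CTRL responses, edgeR and DESeq2 each called 0 of 47 members, against 0.317% of all genes higher and 0.807% lower, and 4 members had an unadjusted p under 0.05. These were Psmd9 (−0.65, adjusted p = 0.107), Psma3 (−0.69), Psmd4 (−0.55) and Psmg2 (−0.38). At 4 °C, edgeR and DESeq2 each called 0 members between BATKO and CTRL mice, against 0.957% of all genes higher and 1.2% lower, with 6 members at an unadjusted p under 0.05 and the lowest adjusted p, 0.137, for Psma3 (−0.56). At 30 °C both tools called 0 members, against 0.00754% and 0%, with 3 at an unadjusted p under 0.05, namely Psme3, Psmd4 and Psmc6. The 12 members called in the cold in 1 genotype alone were therefore not shown to differ between genotypes.

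Genes of the pathway that the symbol rule did not take were counted as well. Of 31 such genes, 15 were called higher and 8 lower in cold CTRL mice (median 0.44), against 26.5% and 22.6% of all genes, and 12 higher and 5 lower in BATKO mice (median 0.28), against 21.4% and 18.9%. Under scaling to total counts alone, 0 were called higher and 12 lower in CTRL mice by edgeR (median −0.15), and 1 higher and 9 lower in BATKO mice (median −0.11). The calls of Nfe2l1, Ddi2, Ngly1, Pomp and Sem1 given next, in both genotypes, were all lost under that scaling, and those of Nfe2l3 and Ubqln2 were kept. Nfe2l1 held 97.6, 126, 124 and 123 CPM at 30 °C and 241, 212 and 174 CPM at 4 °C in CTRL mice, and was higher by 0.83 (SE 0.14, adjusted p = 0.000159) with no overlap. In BATKO mice the groups of Nfe2l1 overlapped, and the 0.34 found (SE 0.13, adjusted p = 0.0389) turned to −0.045 under scaling to total counts alone. That call was kept in 2 of 9 fits that left out 1 mouse, those without 4 °C mouse 12 and 30 °C mouse 17, and without the 3 libraries that stood apart Nfe2l1 was not called in BATKO mice, at 0.29 (adjusted p = 0.13). Ddi2 and Ngly1, which encode the protease and the deglycosylase that activate the Nfe2l1 protein, were higher by 0.82 and 0.67 in CTRL and 0.51 and 0.43 in BATKO mice. Pomp, the maturation factor of the core, was higher by 0.84 (adjusted p = 4.46e-05) in CTRL and 0.63 (adjusted p = 0.000289) in BATKO mice. Sem1, a small subunit of the lid with no Psm symbol, was higher by 0.99 and 0.57. Among those that fell, Nfe2l3, a transcription factor related to Nfe2l1, was lower by −4.47 (adjusted p = 0.000177) in CTRL and −3.81 (adjusted p = 0.000363) in BATKO mice, the largest change of the list in each. Ubqln2, which encodes a shuttle that carries tagged proteins to the proteasome, was lower by −1.58 and −1.01. Nfe2l3 and Ubqln2 were picked for naming after their values were seen, as were Ddi2, Ngly1 and Sem1.

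Nfe2l1 binds antioxidant response elements, whose core letters are TGACNNNGC, and the 250 bases before the RefSeq start of each member were searched for them on both strands. Promoters were found for 40 of 47 members, and 5 of the 40 (12.5%) held the letters, against 3112 of 27025 genes (11.5%). The matches lay in Psmd9 (chr5:123228149-123228177), Psmb6 (chr11:70525338-70525356), Psmd12 (chr11:107479278-107479299), Psmc6 (chr14:45329587-45329615) and Psmb5 (chr14:54618024-54618052) of GRCm38.p6. They are shown because Nfe2l1 is the factor known to drive subunit genes, with the gene's own strand 5′ to 3′, the match in capitals and up to 10 bases on each side within the window. Psmb5 is on the minus strand and the others on the plus strand, and in Psmd12 and Psmc6 the match reads on the opposite strand of the gene.
Psmd9: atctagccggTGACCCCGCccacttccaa
Psmb6: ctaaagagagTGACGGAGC
Psmd12: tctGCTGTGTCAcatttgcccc
Psmc6: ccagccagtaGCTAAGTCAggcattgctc
Psmb5: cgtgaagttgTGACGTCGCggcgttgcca
Of these 5 genes, Psmd12 was called higher in the cold in both genotypes, Psmd9 and Psmb6 in CTRL mice, Psmc6 in BATKO mice, and Psmb5 in neither with all mice. A match of letters is a description of the window and not a site of binding.

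After TH the proteasome genes of WT mice moved little and in both directions. At 3 h 1 member was called higher and 0 lower by edgeR (DESeq2 also called 1 lower), against 5.1% and 4.09% of all 13003 genes, with 7 members at an unadjusted p under 0.05. At 6 h 6 were higher and 2 lower, against 12.1% and 10.9%. At 12 h 3 were higher and 4 lower, against 13.6% and 12.1%. At 24 h 5 were higher (10.6%) and 9 lower (19.1%), against 17.2% and 15.5%, and scaling to total counts alone made this 6 higher and 2 lower, Psma6 and Psme2b. That scaling moved the median of all genes by 0.17 at 6 h and 0.18 at 24 h, and at 6 h gave 10 higher and 2 lower and at 12 h 1 higher and 5 lower. The members' median was −0.01, 0.08, −0.07 and −0.07 at the 4 times, against 0.01, 0.00, −0.02 and 0.01 over all genes, and 31 members were called at no time.

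Psmb10, the immunoproteasome subunit that replaces Psmb7, was the member called at all 4 times. Its level was 1.84, 2.19, 2.15 and 1.76 CPM under PTU and 3.34, 3.32, 4.41 and 5.07 CPM at 6 h, with every treated mouse above every PTU mouse. The log2 fold change of Psmb10 was 0.77 at 3 h (adjusted p = 0.0107), 1.01 at 6 h (SE 0.18, adjusted p = 0.000423), 0.56 at 12 h (adjusted p = 0.0334) and 0.79 at 24 h (adjusted p = 0.00252). At 12 h it lost its call under DESeq2, with no filter on low counts, in the fit of all 30 mice, in that of the 2 groups alone, under scaling to total counts alone, and without PTU mouse B2 or B5 or TH mouse B20 or B21. Psmb8 and Psmb9 were not called at any time.

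Other members rose for part of the time course. Psme3, the nuclear cap, held 60.2, 61.8, 67.5 and 64.5 CPM under PTU and 90.5, 85.1, 92.6 and 88.0 CPM at 6 h, which did not overlap. It was called at 6 h (0.47, adjusted p = 0.00226), 12 h (0.48, adjusted p = 0.0014) and 24 h (0.36, adjusted p = 0.0106). Psmc4 held 31.8, 34.8, 36.8 and 39.1 CPM under PTU and 62.6, 42.7, 50.5 and 57.8 CPM at 6 h, and was higher by 0.57 at 6 h (adjusted p = 0.00558) and 0.39 at 12 h (adjusted p = 0.047). With 1 mouse left out, the 12 h call of Psmc4 was kept in 1 of 8 fits, that without PTU mouse B5. Psmd3, a lid subunit, was higher by 0.50 at 6 h (adjusted p = 0.00676) and 0.45 at 24 h (adjusted p = 0.00955). The core subunit Psmb2 was higher at 6 and 24 h (0.29 and 0.31), the base ATPase Psmc3 at 6 h (0.42) and the chaperone Psmg2 at 24 h (0.31). Psmb2 kept its 6 h call in 2 of 8 fits, those without PTU mice B4 and B5, and lost its 24 h call in 4 of 8, those without PTU mice B2 and B3 and TH mice B26 and B27. Psmg2 lost its call in 3 of 8, those without PTU mice B3 and B5 and TH mouse B27.

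The 9 members called lower at some time included 4 of the alpha and beta rings. Psma1, an alpha subunit, held 98.0, 108, 86.6 and 100.1 CPM under PTU and 74.7, 72.7, 69.4 and 62.1 CPM at 6 h, with no overlap. It was lower at 6 h (−0.51, adjusted p = 0.00169), 12 h (−0.33, adjusted p = 0.0261) and 24 h (−0.38, adjusted p = 0.0093). The chaperone Psmd10 was lower at 6 h (−0.67, adjusted p = 0.0032), 12 h (−0.66, adjusted p = 0.00318) and 24 h (−0.40, adjusted p = 0.0472). Psma5, another alpha subunit, was lower at 12 h (−0.68, adjusted p = 0.00549) and 24 h (−0.57, adjusted p = 0.0119), and Psmd14, the deubiquitinase of the lid, at 12 h (−0.37) and 24 h (−0.39). Called lower at 24 h alone were Psme2 (−0.89), Psme2b (−0.75), Psma6 (−0.63), Psmd1 (−0.41) and Psmb1 (−0.37).

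These calls were not equally stable when 1 mouse was left out. Psma5, Psme2b, Psma6 and Psmb1 kept their calls in 8 of 8 fits, as did Psma1 and Psmd10 at 6 h. Psme2 and Psmd10 at 24 h each kept theirs in 1 of 8, that without TH mouse B24. Psmd14 kept its 12 h call in 2 of 8, those without PTU mouse B4 and TH mouse B20, and lost its 24 h call without PTU mouse B5 or TH mouse B27. Psma1 lost its 12 h call without PTU mouse B3 or B5 or TH mouse B23.

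The 24 h count of lower members rested in part on 1 mouse: without TH 24 h mouse B27, 5 members were called lower and 3 higher. Without PTU mouse B3, 3 were called higher. In mouse B27 Psmd14 was at 23.9 CPM, against 35.9 to 38.3 CPM in the other 3 mice, and Psme3 at 97.4 CPM, against 74.9 to 78.1 CPM. Of the 31 proteasome pathway genes, 30 were tested, of which 4 were called higher and 5 lower at 6 h and 3 higher and 3 lower at 24 h, against 12.1% and 10.9%, and 17.2% and 15.5%, of all genes. Scaled to total counts alone, 6 were higher and 3 lower at 6 h, and 6 higher and 0 lower at 24 h by edgeR. Of the interferon and class I genes, 1 was called higher and 2 lower at 24 h, of 14 tested. General adipocyte markers fell over the same times: of 4, 0 were called at 3 h by edgeR, 1 was lower at 6 h and 4 were lower at 12 and at 24 h, where their median was −1.04. Their summed level was 8402 to 9589 CPM under PTU and 4078 to 4381 CPM at 24 h. Of the 8 brown adipocyte markers, edgeR called 3 higher after 3 h, 4 higher after 6 h and 2 higher at each later time, while 2 were called lower at 24 h and 0 at the earlier times. The summed level of these 8 was 7180 to 9486 CPM under PTU and 12586 to 14991 CPM at 6 h. The part of these markers in the members' changes was not tested.

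**Figure D3:**
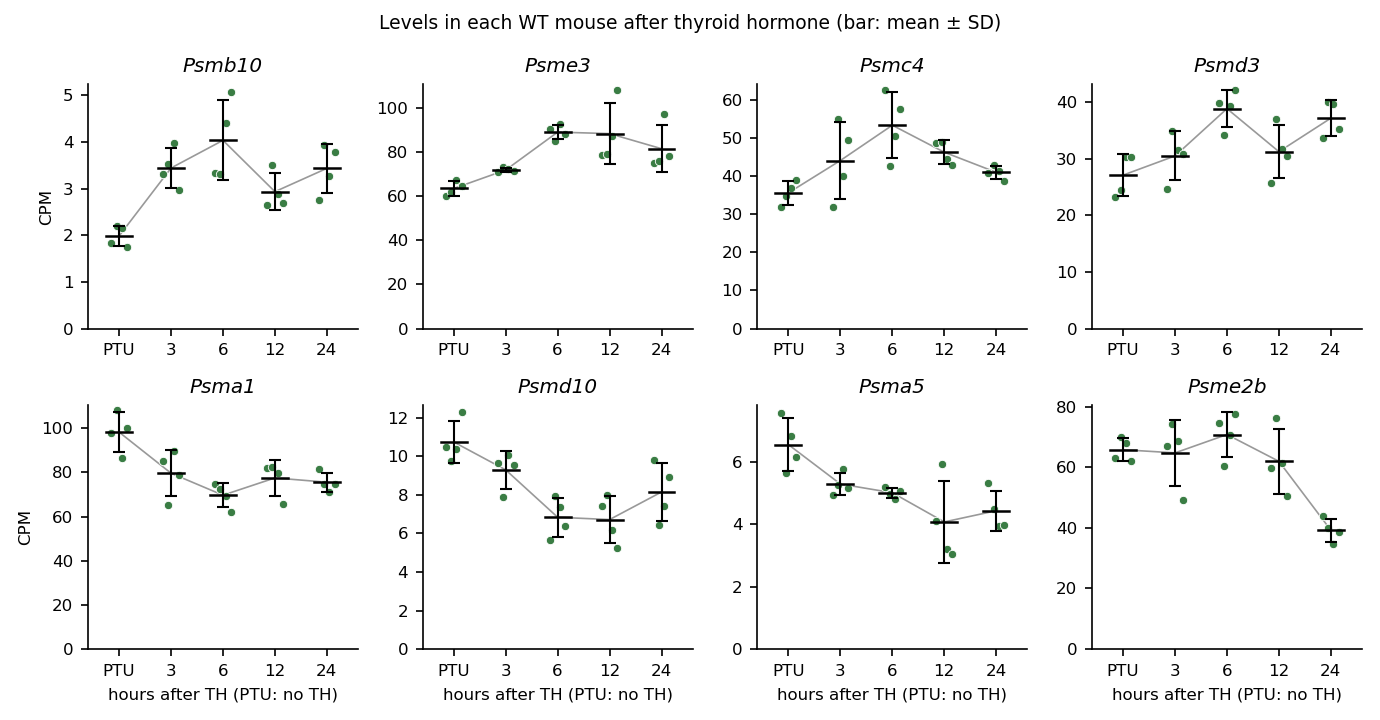
Level of each WT mouse (points, CPM, y axis) under PTU and at 3, 6, 12 and 24 h after TH (x axis) of Psmb10, Psme3, Psmc4, Psmd3, Psma1, Psmd10, Psma5 and Psme2b, with bars for the mean ± SD. Psmb10 rises from 1.76 to 2.19 CPM under PTU to 3.32 to 5.07 CPM at 6 h, while Psma1 falls from 86.6 to 108 CPM to 62.1 to 74.7 CPM.

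In BATKO mice no member was called after 24 h of TH. The test by edgeR called 0 of 47 members, and 0% of all 14178 genes in either direction, and DESeq2 called 0 members. Members with an unadjusted p under 0.05 were 2, Psmb10 (0.53, adjusted p = 0.932) and Psmb8 (0.41, adjusted p = 0.963). The median over all 47 members was 0.03, against −0.01 over all genes.

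The difference between the BATKO and WT responses at 24 h was tested directly. There 4 members were called higher and 2 lower in BATKO relative to WT, against 5.12% and 7.15% of all genes, and these 6 were among the members called in WT mice. The largest was Psme2b, at 0.85 (SE 0.17, adjusted p = 0.00176). Its level went from 63.1, 70.0, 68.0 and 61.9 CPM to 43.9, 39.8, 34.6 and 38.6 CPM in WT mice, and from 60.2, 54.7, 63.9, 51.6 and 65.1 CPM to 68.1, 51.6, 56.7, 70.1 and 71.5 CPM in BATKO mice. The WT groups did not overlap and the BATKO groups did.

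Psma6 differed by 0.65 (SE 0.15, adjusted p = 0.0052). It went from 135, 141, 139 and 136 CPM to 102, 99.8, 77.0 and 78.8 CPM in WT mice, and from 94.6, 95.5, 96.0, 103 and 106 CPM to 95.8, 103, 82.8, 102 and 120 CPM in BATKO mice. When levels of WT and BATKO mice are set side by side, genotype and the set of libraries cannot be told apart. Psma5 differed by 0.70 (SE 0.20, adjusted p = 0.024) and Psmb1 by 0.43 (SE 0.12, adjusted p = 0.0196), each lower after TH in WT mice and at 0.12 and 0.06 in BATKO mice. Psme3 differed by −0.53 (SE 0.13, adjusted p = 0.00658), with 48.6, 46.2, 48.5, 46.1 and 50.3 CPM under PTU and 41.5, 45.0, 46.5, 37.4 and 42.2 CPM after TH in BATKO mice. Psmd3 differed by −0.56 (SE 0.19, adjusted p = 0.0494), a call kept in 6 of the 18 fits that left out 1 mouse.

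Psma6, Psme2b and Psme3 kept this call in 18 of 18 such fits, and Psma5 and Psmb1 in 15. Scaling to total counts alone left 3 of the 6 differences called, those of Psma6, Psme2b and Psme3, with a shift of all genes of −0.12. With no filter on low counts Psma5, Psmb1 and Psmd3 were also not called. Without WT TH 24 h mouse B27, or without mouse B28, 2 members were called higher instead of 4. Of the 4 adipocyte markers, 3 were also called higher for this difference (median 0.87), and their summed level in BATKO mice was 9117 to 10298 CPM under PTU and 7622 to 12264 CPM after TH. Their part in the members' differences was not tested.

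**Figure D4:**
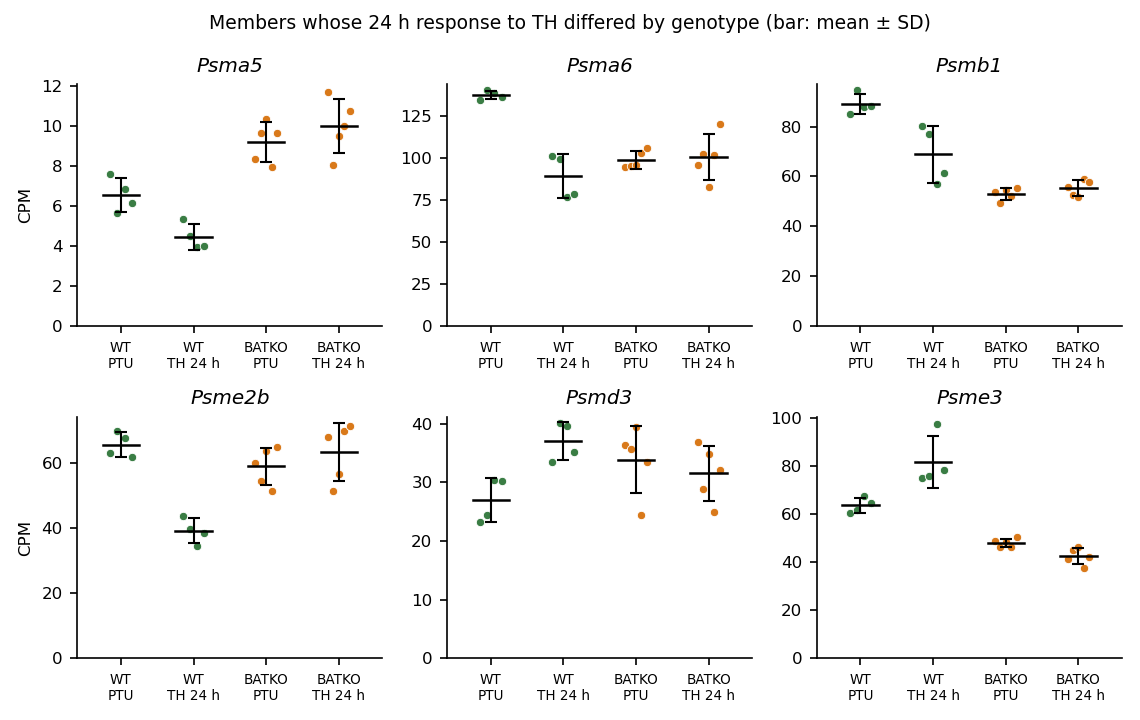
Level of each mouse (points, CPM, y axis) of Psma5, Psma6, Psmb1, Psme2b, Psmd3 and Psme3 under PTU and 24 h after TH in WT and BATKO mice (x axis), with bars for the mean ± SD. Psma6 drops from 135 to 141 CPM to 77.0 to 102 CPM in WT mice and stays at 82.8 to 120 CPM in BATKO mice, and under scaling to total counts alone the differences of Psma5, Psmb1 and Psmd3 are not called.

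Under PTU alone, 21 members were higher and 15 lower in BATKO than in WT mice, against 36.4% and 33.9% of all genes, with a median of 0.04 against 0.02. The members with the largest differences were Psma4, at 7.21, 7.21, 7.86 and 7.03 CPM in WT and 52.5, 49.8, 53.7, 46.0 and 48.9 CPM in BATKO mice (2.77, SE 0.12, adjusted p = 1.52e-18), and Psmb5, at 3.14, 3.01, 3.80 and 2.901 CPM and 22.96, 21.9, 21.7, 18.5 and 21.7 CPM (2.72, SE 0.14, adjusted p = 9.93e-17). Lower in BATKO mice were Psmb2 (−1.59), Psmg4 (−1.50) and Psmg2 (−1.47), and higher were Psmd2 (1.94) and Psmb8 (1.91). With 70.3% of all genes called and the BATKO libraries deeper, as given above, genotype and the set of libraries cannot be told apart in this comparison. Of the 8 brown adipocyte markers 6 were called lower in BATKO mice, with a summed level of 7180 to 9486 CPM in WT and 2004 to 3123 CPM in BATKO mice, and all 3 endothelial markers were called higher. Of the 15 interferon and class I genes, 10 were called higher and 4 lower. Of the 4 general adipocyte markers, 1 was called higher and 2 lower, and of 7 immune cell markers tested, 1 was called lower. The part of these cell types in the members' differences was not tested.

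On the high-fat diet the share of members called was near that of all genes. In CTRL mice 1 of 46 members tested was called higher on HFD (2.17%) and 0 lower, against 1.89% and 2.04% of all 12932 genes, with 8 members at an unadjusted p under 0.05, a DESeq2 count of 1 higher and 0 lower, and a median of 0.05 against 0.01. The member called was Psmd8, a lid subunit, at 152, 114, 154 and 119 CPM on chow and 166, 209, 201 and 185 CPM on HFD. The groups did not overlap, and the log2 fold change was 0.50 (SE 0.13, adjusted p = 0.0434). The call was lost in 6 of the 8 fits that left out 1 mouse, those without chow mice 1, 2 and 4 and HFD mice 9, 10 and 11, and it was lost under scaling to total counts alone and in a fit of these 2 groups alone.

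Psmb8 (0.64, adjusted p = 0.132), Psmb9 (0.39) and Psmb10 (0.73, adjusted p = 0.179) lay above 0 on HFD in CTRL mice and did not pass the test. None of 15 interferon and class I genes was called by edgeR there, their median was 0.51, and the summed immune cell markers stood at 117 to 172 CPM on chow and 182 to 268 CPM on HFD. Of the 8 brown adipocyte markers, edgeR called 3 higher and 0 lower on HFD in CTRL mice, with a summed level of 2433 to 4147 CPM on chow and 3753 to 5722 CPM on HFD, and 1 higher in BATKO mice. The part of these cell types in the members' values was not tested. In BATKO mice edgeR and DESeq2 each called 0 members on HFD, against 0.0309% and 0.0387% of all genes, with 7 members at an unadjusted p under 0.05, a median of 0.22 against 0.03 and the lowest adjusted p, 0.234, for Psmd6 (0.38). Between genotypes both tools called 0 members on HFD and on chow, and 0 for the difference in diet response, where 0% of all genes were called. Unadjusted p under 0.05 was found for 0 members on HFD, 1 on chow, Psmg1, and 0 for the difference.

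Levels differed widely between members. Per kilobase of exon, Psmb2 was the highest in CTRL mice at 30 °C with 85.7 ± 13.6 CPM per kilobase (SD, n = 4), followed by Psme2b with 53.0 ± 3.97, Psma6 with 52.2 ± 5.41 and Psmd8 with 43.6 ± 5.50. Psme2b and Psma6 differed by less than their spread. The lowest were Psme2 with 2.02, Psmd9 with 1.51, Psma3 with 1.42 and Psmg3 with 0.64. Reads of Psme2 and Psme2b may have been divided between them, so the places of both in this order are uncertain. Lengths joined all annotated exons of a gene, such as 837 bases for Psme2b and 7248 for Psmd9, which also bears on the order. The standard cutting subunits were at 9.79 for Psmb6, 8.08 for Psmb7 and 2.33 for Psmb5, and the immunoproteasome subunits at 4.45 for Psmb10, 3.15 for Psmb8 and 2.44 for Psmb9. Psmb5 was not tested in the diet experiment, where it held 0 to 0.64 CPM.

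**Figure D5:**
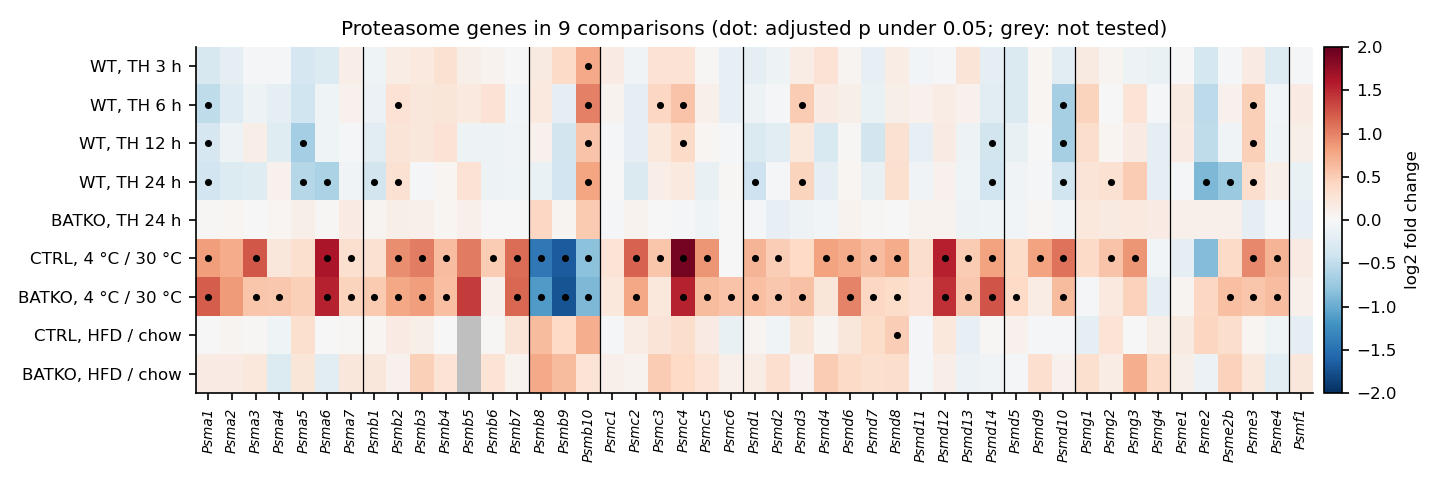
Log2 fold change (colour) of the 47 members in 9 comparisons, with a dot where the member was called and grey where Psmb5 was not tested. The cold rows hold 28 members called higher and 3 lower in each genotype under TMM scaling (7 and 7 in CTRL and 8 and 4 in BATKO mice under scaling to total counts alone), and the diet rows hold 1 called member, Psmd8 in CTRL mice.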

How the data were processed

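BAT RNA was extracted with Trizol, made into libraries with a total RNA kit (SENSE, Lexogen) and sequenced on a NextSeq 500. The authors aligned reads to mm10 with Bowtie2 2.3.2.2, per the labels' processing notes, removed reads of low mapping quality and counted reads per gene with htseq-count. The deposited values are raw counts per gene in 3 tables, 1 per experiment, for 55341 genes. The annotation and the strand setting are not given in the sources used here. Positions and exon lengths were taken from GENCODE and promoters from RefSeq, both on GRCm38.

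From the counts, TMM scaling and edgeR 4.0.16 (quasi-likelihood test, R 4.3.3) were run separately in each table on genes with a mean normalized count above 10, with a model of group means. The TH times of WT mice were fitted with the 20 WT mice, contrasts with BATKO mice with all 30, and the other experiments with all their mice. P-values were adjusted by Benjamini-Hochberg over all genes tested. Alternatives were DESeq2 1.42.0, RLE size factors, no filter, a minimum of 50, removal of mitochondrial genes, other sets of mice and each mouse left out. Scaling to total counts and leaving out 3 libraries were added after seeing the data. Scripts were tested on simulated data with changes of 2-fold and 1.5-fold. Of the 2-fold changes, 73.5% were recovered at 24 h of TH in WT mice, 29.3% in cold CTRL mice and 60.6% on HFD in CTRL mice. The share was 39% on HFD in BATKO mice and 42.9% for the difference in TH response. Of the 1.5-fold changes, 1.02% to 29% were recovered, so a member that was not called may still have changed. Replicates were separate mice, and 91 pairs within groups were checked for copies: chi-square divided by its degrees of freedom was 7.47 or more, so no pair agreed within counting noise. The members and the gene lists were chosen with earlier results of these data known. The genes named were Psmb5 to Psmb10, Psme1 to Psme4, Psmf1, Nfe2l1 and Pomp, the 3 called members with the largest change in each direction of a comparison, the 6 members called most often and every member called for a difference in response. Others named beside small counts were chosen after their values were seen. DESeq2 is also named in the labels as a tool of the authors, and their own test results were not used. The result of 1 gene of the interferon list is not reported here.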

Additional observations from a re-analysis of the deposited data

Results flagged for a closer look

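In groups of 4 or 5 mice, 23 of 348 groups searched over the named genes held 1 mouse apart from the rest by Dixon's test on CPM, where chance gives about 1 in 20, or 17.4. The value given is how far that mouse lay from its closest neighbour, as a share of the group's range. In the temperature experiment it was 0.868 for Psmb6, 0.895 for Psma6 and 0.870 for Nfe2l1 in CTRL mice at 30 °C, 0.759 for Psme2b in BATKO mice at 30 °C, and 0.853 for Psmb9, 0.872 for Psma4 and 0.841 for Psmd2 in BATKO mice at 4 °C. The mouse apart was BATKO 30 °C mouse 14 for Psme2b (70.9 CPM against 40.7 to 48.0) and BATKO 4 °C mouse 11 for Psma4 (6.81 CPM against 8.67 to 8.94) and Psmd2 (21.1 CPM against 31.3 to 33.3), both among the 3 libraries that stood apart over all genes.

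In the hormone experiment the value was 0.956 for Psmb8, 0.925 for Psme4 and 0.960 for Psmf1 at 3 h, 0.873 for Psme1 and 0.887 for Psmb2 at 6 h, 0.908 for Psmb8 and 0.846 for Psmg4 at 12 h, and 0.923 for Psmb8, 0.858 for Psme3 and 0.836 for Psmd14 at 24 h in WT mice, and 0.895 for Psmd8 in BATKO mice under PTU. Psmb8 was apart in 3 of the 4 treated WT groups, with 3.29 CPM in mouse B11 at 3 h, 3.80 CPM in mouse B23 at 12 h and 3.16 CPM in mouse B28 at 24 h, against at most 2.48 CPM in the other mice of those groups. In the diet experiment it was 0.976 for Psmb7 and 0.906 for Psmb10 in CTRL mice on chow, and 0.834 for Psmb8, 0.868 for Psme3 and 0.876 for Psmd12 in CTRL mice on HFD.

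The response to 24 h of TH differed between BATKO and WT mice for 6 members, by a test of the difference itself. Of these, 4 were called higher and 2 lower, against 5.12% and 7.15% of all genes. Under scaling to total counts alone Psma5, Psmb1 and Psmd3 were not called, and Psmd3 kept its call in 6 of 18 fits that left out 1 mouse. The BATKO libraries of this experiment were deeper, and genotype cannot be told apart from the set of libraries. The difference, BATKO minus WT on the log2 scale, was 0.70 for Psma5, 0.65 for Psma6, 0.43 for Psmb1, 0.85 for Psme2b, −0.56 for Psmd3 and −0.53 for Psme3.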

How the results depend on the processing

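Scaling to total counts alone, added after seeing the data, moved most: it gave 7 members higher and 7 lower in cold CTRL mice, 8 higher in cold BATKO mice, 1 higher between genotypes at 4 °C (Psme1), 10 higher at 6 h of TH, 1 higher at 12 h, 2 lower at 24 h, 2 higher and 1 lower for the difference in TH response, and 0 higher on HFD. It reversed Psmb6 (−0.070), Psmd2 (−0.10) and Psmg2 (−0.019) in cold CTRL mice and Psmd8 (−0.014) and Nfe2l1 (−0.045) in cold BATKO mice. By construction it keeps the shift of all genes that TMM removes. No filter on low counts gave 1 higher and 2 lower at 12 h, 3 higher at 24 h, 2 higher and 1 lower for the difference in TH response and 3 higher on HFD, testing more genes. A minimum of 50 gave 0 higher and 1 lower at 3 h, DESeq2 gave 1 lower at 3 h, the fit of all 30 mice gave 1 higher at 12 h, removal of mitochondrial genes gave 1 lower for the difference in TH response, and the 2 HFD groups alone gave 0 higher; the cause was not tested.

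With each mouse left out in turn, the count in cold CTRL mice was 23 to 29 higher and 3 lower, and in cold BATKO mice 21 to 29 higher and 3 lower. Between genotypes at 4 °C, and for the difference in cold response, 0 to 1 member was lower, the 1 arising without CTRL 4 °C mouse 5. After TH it was 1 to 3 higher (3 without TH mouse B7) and 0 to 1 lower at 3 h (1 without mice B4, B9 or B11), 4 to 6 higher and 2 lower at 6 h, 1 to 3 higher (1 without PTU mouse B2) and 2 to 5 lower (2 without mice B5 or B23) at 12 h, and 3 to 6 higher and 5 to 10 lower at 24 h. For the difference in TH response it was 2 to 6 higher and 1 to 2 lower, under PTU 19 to 21 higher and 14 to 16 lower in BATKO mice, and on HFD 0 to 1 higher. The other counts stayed at 0.

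Leaving out the 3 libraries that stood apart left CTRL mice at 4 °C with 2 mice. RLE size factors changed no call of a named gene. No paired analysis was possible because, within each experiment, the groups compared share no mouse number. Depth limits Psmb5, with at most 5 reads per mouse on either diet, and other members with group means under 5 CPM, among them Psmb5, Psmb8, Psmb9, Psmb10 and Psmg3 in WT mice of the hormone experiment, Psmb5, Psme2 and Psmg3 in the temperature experiment, with Psmb9 and Psmb10 in the cold, and Psma5, Psme2 and Psmg3 in the diet experiment. Near-copies such as Psme2 and Psme2b, and genes that overlap on opposite strands, may share reads.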
